A study of Mus musculus with 38 samples.

Results

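Total RNA of whole Recruited tumour tissue was compared with total RNA of adult mouse cortex, on 3 and 5 Affymetrix arrays out of the 38 of the study, and every tested gene was a member of the comparison. The arrays were picked by their labels alone. Tumour tissue was dissected from mice in which a glioma had been induced, in a murine model that the submitters name Recruited and do not explain further, and cortex was dissected from adult wild-type mice. All of the mice were a mixture of the c57/bl6j, FVB and Swiss-Webster strains. Each cortex array held RNA pooled from at least 2 mice, while no pooling is stated for the tumours and no age is stated for the mice that carried them. The other tumour tissue used below came from the models named Pdgf and Pdgf Cre, with 3 total RNA arrays each. The labels name no promoter, Cre driver or tumour line for any model. Nothing states that the 3 tumour arrays came from 3 mice, so the spread between arrays may not be that between animals.

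Gliomas of the PDGF type grow from, or resemble, oligodendrocyte progenitor cells, which divide in the adult brain, carry the PDGF receptor Pdgfra and the transcription factor Olig2, and can mature into myelinating oligodendrocytes. Tissue of such a tumour holds dividing glia together with microglia, blood macrophages, vessel cells and whatever brain tissue the tumour has entered. Cortex total RNA, in contrast, is dominated by transcripts of neurons and by myelin genes. Because the arrays measured whole tissue, fewer cells of a type and less RNA per cell cannot be told apart in any result below.

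Levels are log2 values after quantile normalization over all 38 arrays. A level under log2 50 (5.64) is called dim, and a gene was tested if it lay above that limit in at least 3 of the 38 arrays, which 9799 genes did. A gene that was dim in all 5 cortex arrays could therefore enter only through arrays in which it was high, the tumour arrays among them. Counts of rises in lists that were dim in cortex were in part fixed by this filter and are no evidence on their own. A gene passed, and is said to have risen or fallen, if its limma p adjusted over these genes was under 0.05 and its difference was at least 2-fold. Where the mean of either group was dim, the fold was taken against the dim limit and is written as "at least". Of the 5 cortex arrays, all correlated with each other at 0.989 to 0.996 over the tested genes. Recruited replicates 1 and 2 correlated at 0.957 with each other, and at only 0.70 and 0.718 with the cortex mean. Recruited replicate 3 correlated at 0.861 and 0.885 with those replicates and at 0.885 with the cortex mean, so it stood as near to cortex as to the nearer of its own group. The ribosome-bound RNA of Recruited tumours, from cells that express Olig2, did not set its replicate 3 apart in its correlation with cortex: that array correlated at 0.68 with the cortex mean, where the bound arrays 1 and 2 gave 0.649 and 0.677. Bound and total arrays of the same number still deviated from their groups together, with correlations of 0.466, 0.266 and 0.488 for replicates 1 to 3. Mitosis genes, for example, averaged 8.10, 7.14 and 6.37 in the bound arrays, again lowest in replicate 3. The median SD of a gene over the Recruited arrays was 0.453, or 0.184 over replicates 1 and 2, against 0.157 over the cortex arrays. The limma fit pooled the spread over all 12 groups, with a median as low as 0.03 in the bound RNA of cortical neurons. The SEs and adjusted p-values below therefore do not measure the spread of the 3 Recruited arrays alone. The difference between the 3′ and 5′ probe sets for beta actin, which grows as RNA breaks or is copied from one end, was 2.795 ± 0.612 in Recruited tissue (SD, n = 3) and 4.568 ± 1.013 in cortex (SD, n = 5), and cortex replicate 5 stood with the tumours at 2.798. With this difference as a covariate 4881 genes passed, against 4916 without it. Of the 176 genes named below, 7 then no longer passed and 4 newly passed. Because the difference set most cortex arrays apart from the tumours, the covariate cannot tell RNA quality from tissue.

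With all 3 Recruited arrays 4916 genes passed, 50.2% of those tested, of which 2326 were higher in Recruited tissue and 2590 lower. Without replicate 3 the count was 5504 (56.2%), 2551 higher and 2953 lower. The same 4805 genes passed in both, 97.7% of the first set and 87.3% of the second. The split by direction rested on the scale between the groups: 47.3% of the passing genes were higher here, against 69.9% of 4874 with the values as deposited, where the median gene lay 0.41 above cortex, and 31.6% of 5394 after centring each array on its median, where it lay at -0.57. Here the median gene lay at -0.08, or -0.11 without replicate 3. The arrays of the groups did not overlap for 63.8% of the genes tested (30.9% higher and 32.8% lower in Recruited tissue), and for 80.6% without replicate 3 (37.3% higher and 43.3% lower). The tumours and the cortex arrays also belong to different datasets of the submitters, and dataset and tissue cannot be told apart.

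Recruited replicate 3 carried the same changes at a smaller size for most genes. On a scale on which the cortex mean is 0 and the mean of replicates 1 and 2 is 1, its median position was 0.519 over the 2551 genes that rose without it and 0.518 over the 2953 that fell. Of the genes that rose, 2222 (87.1%) lay above all 5 cortex arrays in replicate 3 as well, 221 lay inside the cortex range and 108 on its other side. Of those that fell, 2343 (79.3%) lay below all cortex arrays in replicate 3, 369 inside their range and 241 above it. On linear values the median position was 0.291 for the genes that rose and 0.723 for those that fell. The gene groups differed in this. Mitosis genes stood at a median position of 0.132 and synaptic vesicle genes at 0.061, both close to cortex, while extracellular matrix genes stood at 0.753, nearer to the mean of replicates 1 and 2. On linear values these lists stood at 0.012, 0.109 and 0.382, so that matrix genes too were nearer to cortex. Replicates 1 and 2 themselves lay far apart in the mean level of matrix genes, at 7.61 and 11.35, with replicate 3 at 8.37.

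**Figure D1:**
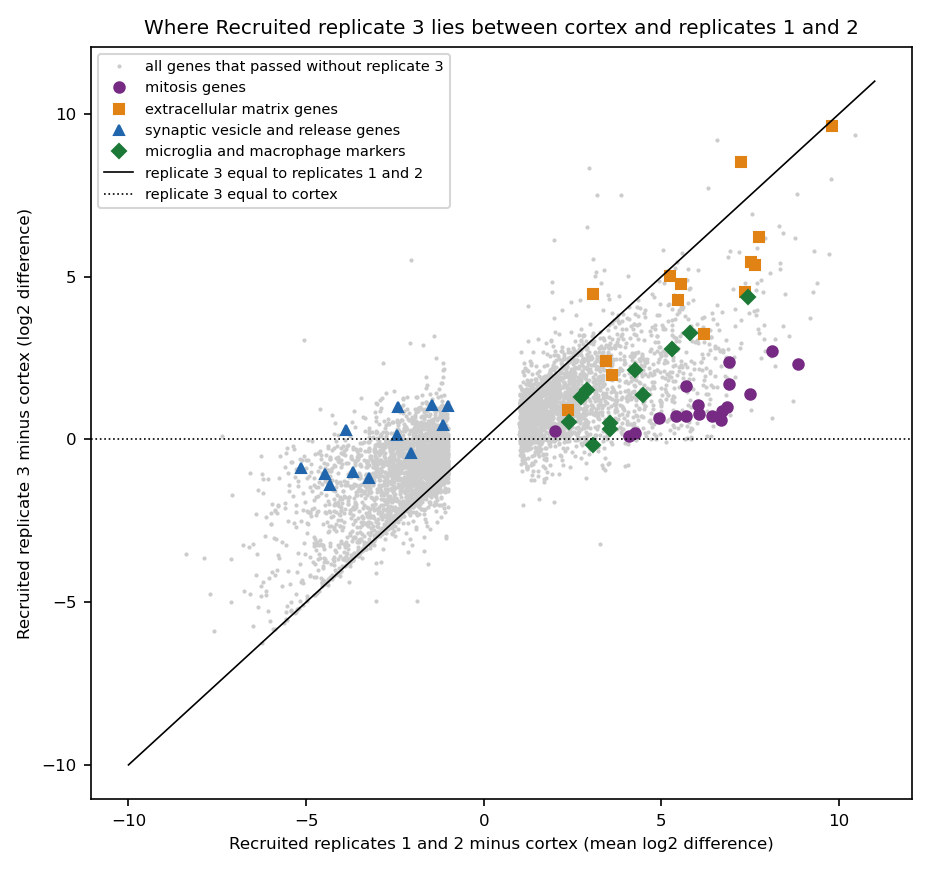
For each gene that passed without Recruited replicate 3, the mean log2 difference of Recruited replicates 1 and 2 from the cortex mean (x axis) is plotted against the log2 difference of Recruited replicate 3 from the cortex mean (y axis), with 4 gene lists in colour. By their median position, mitosis genes (circles) and synaptic vesicle genes (triangles) lie near the dotted line at which replicate 3 equals cortex. Matrix genes (squares) lie, by the same measure, nearer to the solid line at which it equals the mean of replicates 1 and 2.

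Among genes whose mean was above the dim limit in both tissues, the largest rise was in Cd9, a tetraspanin of the cell surface found on glial progenitors and myelin. It stood at 13.01, 12.65 and 10.45 in Recruited replicates 1 to 3, against 5.8, 5.60, 5.49, 5.57 and 6.66 in cortex. All 3 tumour arrays lay far above all 5 cortex arrays, and the log2 difference was 6.21 ± 0.43 (SE, adjusted p = 1.87e-13), 74.3-fold with replicate 3 and 129-fold without. The cortex mean of Cd9, at 5.82, was barely above the dim limit and 3 of the cortex arrays were under it, so the size of this fold is uncertain. Ctsc, which encodes the lysosomal protease cathepsin C, rose 65.8-fold, or 150-fold without replicate 3. Map3k1, a kinase upstream of the JNK pathway, stood at 12.61, 12.87 and 9.73 against a cortex range of 6.14 to 6.2 and rose 47.1-fold, or 94.5-fold without replicate 3. The phospholipid-binding protein gene Anxa1 rose 38.2-fold (71.6-fold without replicate 3), the basement membrane collagen gene Col4a1 36.8-fold (72.8-fold) and Olig2 36.4-fold (70.9-fold). Mgp, an inhibitor of calcification, rose 35.7-fold in both fits. Next came Sparc, a matrix glycoprotein (33.4-fold), the mRNA export factor Alyref (32.8-fold, or 50.7-fold without replicate 3), the class I antigen gene H2-D1 (32.3-fold, or 63.7-fold without it), calponin 2 (Cnn2, 31.9-fold) and the actin-binding protein profilin (Pfn1, 31.6-fold). In Cd9, Alyref and Pfn1 cortex replicate 5 was the highest of the cortex arrays, at 6.66, 7.58 and 7.18, and it is the array whose actin ratio resembled the tumours. Without that array the 3 still passed.

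Among genes that were dim in cortex, H19, an imprinted noncoding RNA abundant in the fetus, had the largest rise. It reached 12.44, 12.63 and 11.42 in Recruited tissue and lay at 2.08, the floor of these values, in each cortex array, which is a rise of at least 91.6-fold (adjusted p = 5.02e-20). Replicate 3 was only slightly lower than the others here. Col3a1, a fibrillar collagen gene, rose at least 74.0-fold and the collagen chaperone gene Serpinh1 at least 62.5-fold. Emp1 rose at least 40.4-fold, Tagln2, an actin-binding protein gene, at least 33.3-fold (84.3-fold without replicate 3), and Cdkn2b, which encodes the cell cycle inhibitor p15, at least 25.1-fold (56.6-fold without it). The bound for Serpinh1 without replicate 3 was 94.5-fold. Cdkn2b stood at 10.47, 12.46 and 7.95 in Recruited tissue, against 2.11 to 2.33 in cortex.

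The largest falls included several transcripts of neurons. Pnmal2 stood at 6.33, 5.17 and 6.53 in Recruited tissue, against 12.75, 12.74, 11.82, 12.60 and 11.35 in cortex. All 3 tumour arrays were low, replicate 3 included, and the fall was 75.8-fold (log2 difference -6.24 ± 0.39 SE, adjusted p = 1.74e-14). Atp2b2, a calcium pump of the plasma membrane, fell 42.5-fold and Vip, a neuropeptide of inhibitory neurons, 39.3-fold. Creg2 fell 37.2-fold, Hs3st2, a heparan sulfate sulfotransferase, 29.5-fold, and Arc, an activity-induced gene of synapses, 24.2-fold. The cytoskeletal genes Fhod3 and Dmtn fell 25-fold and 24.8-fold, the G protein subunit Gng13 22.9-fold, the ubiquitin ligase subunit Fbxo31 22.7-fold, Lrrc73 25.1-fold and Nrgn, a calmodulin-binding protein of dendrites, 21.5-fold. For most of these replicate 3 lay between the groups: Vip was at 4.63, 5.60 and 10.51 in Recruited tissue and between 11.98 and 12.40 in cortex. Without replicate 3 the fall of Vip was at least 94.9-fold, that of Gng13 at least 68.2-fold, that of Fhod3 at least 46.6-fold and that of Lrrc73 at least 40-fold, with Recruited means under the dim limit, and Dmtn and Nrgn fell 61.8-fold and 48.2-fold. Among genes that were dim in neither tissue without replicate 3, the 6 largest falls also took in Doc2a (48.7-fold), Itpka (46.9-fold) and Npy (40.9-fold).

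Of the genes that became dim in Recruited tissue, Rasl10a fell at least 36.5-fold, Mtus2 at least 20.1-fold, Rasal1, which restrains Ras, at least 17.7-fold, Sobp at least 16.5-fold, Tnnc1, a troponin, at least 16.2-fold, and Bmpr2, a BMP receptor, at least 7.91-fold. Bmpr2 stood at 2.37, 2.42 and 2.37 in Recruited tissue, against 9.0, 7.89, 9.09, 9.20 and 7.96 in cortex. Replicate 3 was no nearer to cortex than the other tumour arrays for this gene. For Rasl10a, in contrast, it lay at 7.32 where replicates 1 and 2 lay at 2.43 and 2.47 and cortex between 10.52 and 11.14.

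**Figure D2:**
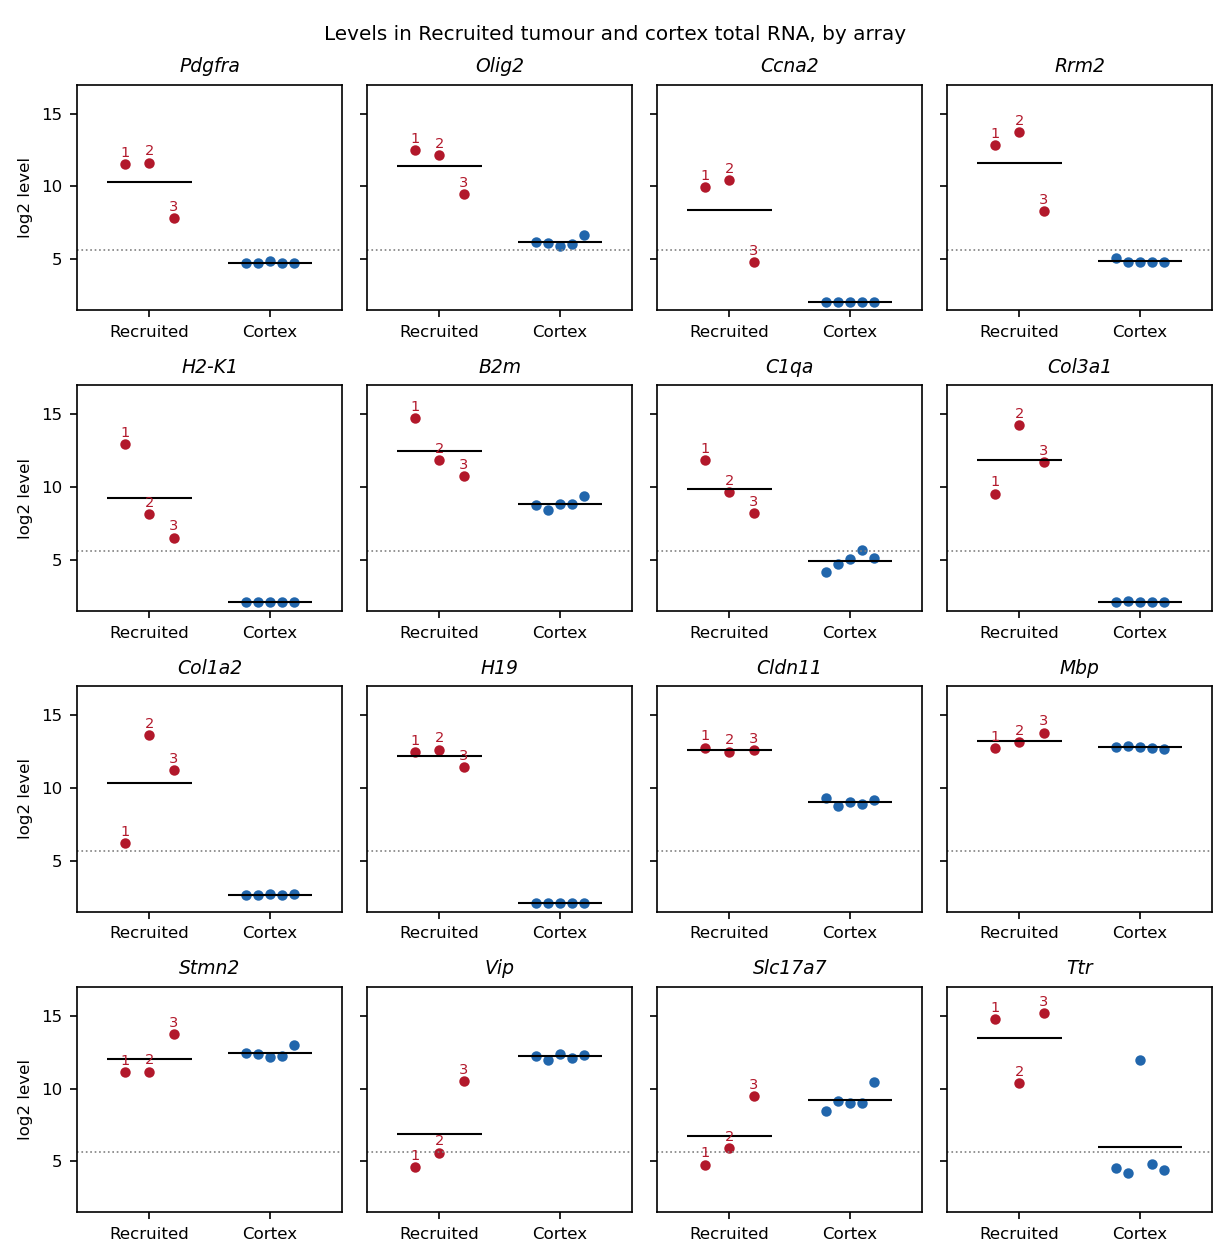
Log2 levels of 16 genes in each Recruited tumour array (red, numbered by replicate) and each cortex array (blue), with a bar at each group mean and a dotted line at the dim limit of 5.64. Replicate 3 is the lowest Recruited array for Pdgfra, Olig2, Ccna2 and Rrm2, the highest for Stmn2, Vip, Slc17a7 and Ttr, and level with the others for Cldn11.

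Markers of oligodendrocyte progenitors rose as a group, with mean levels of 11.16, 10.59 and 8.21 in Recruited replicates 1 to 3 and of 6.45 to 6.61 in cortex. Of the 14 on the list, all of them tested, 13 rose with 3 arrays and 14 without replicate 3, and the median log2 difference was 3.21, or 4.17 without replicate 3 (2.35 and 3.14 with dim levels raised to the limit). Over all tested genes 23.7% rose, or 26% without replicate 3. Pdgfra stood at 11.54, 11.63 and 7.83 in Recruited tissue, against 4.75, 4.72, 4.91, 4.75 and 4.74 in cortex. Every tumour array was above every cortex array, with replicate 3 about midway, and the rise was at least 25.8-fold (adjusted p = 5.6e-12), or at least 61.6-fold without replicate 3. Olig2 stood at 12.50, 12.17 and 9.45, against 5.91 to 6.63 in cortex. The transcription factor gene Sox10 rose at least 4.75-fold, the surface proteoglycan gene Cspg4 (NG2) at least 4.0-fold, Matn4 at least 14-fold and Ptprz1, a receptor phosphatase, 5.48-fold. Olig1 was already abundant in cortex, at 12.93 to 13.41, and rose 3.17-fold. Gpr17, which marks progenitors on the way to maturation, stood at 11.38, 9.26 and 9.19 in Recruited tissue and at 8.41 to 9.12 in cortex, and rose 2.14-fold.

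The PDGF ligand genes Pdgfa and Pdgfb did not rise with the receptor gene. Whether their probe sets would also read any PDGF supplied by the tumour model was not tested. Pdgfa, made by neurons and glia, stood at 6.84, 4.88 and 7.84 in Recruited tissue, against 8.34, 8.37, 8.42, 8.4 and 8.38 in cortex, and fell 3.63-fold. Pdgfb was dim in all 3 Recruited arrays, at 3.90, 4.01 and 4.08, against 5.69 to 5.88 in cortex, a fall of at least 1.14-fold. Hbegf, a ligand of the EGF receptor, rose at least 4.14-fold. Of the 11 ligands and receptors tested, out of 17 measured, 4 rose and 4 fell both with and without replicate 3, but 5 rose and 1 fell with 3 arrays when the values were used as deposited. Over all tested genes 23.7% rose and 26.4% fell with 3 arrays. Genes that are induced by receptor signalling and feed back on it rose for 6 of the 10 tested, and none fell (median log2 difference 2.62, or 0.00 with dim levels raised to the limit). Spry1, an inhibitor of receptor tyrosine kinase signalling, stood at 12.51, 12.54 and 8.96 in Recruited tissue and at 6.40 to 6.79 in cortex, and rose 26.5-fold. The ERK phosphatase gene Dusp6 rose 11.4-fold. Myc reached 7.44, 6.51 and 4.84 in Recruited tissue and was dim in cortex at 2.18 to 2.20, and rose at least 1.54-fold.

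Transcripts of dividing cells were high in Recruited replicates 1 and 2 and low in replicate 3. The mean level of 18 mitosis genes was 8.34, 8.60 and 3.51 in Recruited replicates 1 to 3, against 2.40 to 2.42 in the cortex arrays. All 18 tested, of 19 measured, rose with and without replicate 3 (median log2 difference 4.44, or 6.24 without it, and 1.22 and 3.12 with dim levels raised to the limit). The list was dim on average in cortex, so the filter left little room for any other count. Over all tested genes 23.7% rose, or 26% without replicate 3. Cdk1, the kinase that starts mitosis, stood at 9.21, 9.13 and 3.96 in Recruited tissue, against 2.27, 2.27, 2.28, 2.28 and 2.29 in cortex. Replicate 3 was above cortex yet under the dim limit, and the rise was at least 3.46-fold (adjusted p = 6.86e-08), or at least 11.5-fold without it. Its partner cyclin gene Ccna2 stood at 9.93, 10.43 and 4.78, with each cortex array at 2.08, and rose at least 6.67-fold. Nusap1, of the spindle, rose at least 8.55-fold and Plk1, a mitotic kinase, at least 3.58-fold. Of the DNA replication genes 15 of the 16 tested rose, and 16 without replicate 3 (median log2 difference 3.14, or 4.41 without it, and 1.25 and 2.45 with dim levels raised to the limit). That list too was dim on average in cortex, at 4.14 to 4.43, and the same limit applies to its counts. Rrm2, the ribonucleotide reductase subunit that makes deoxynucleotides, stood at 12.85, 13.73 and 8.32 in Recruited tissue, against 5.12, 4.78, 4.80, 4.79 and 4.79 in cortex, and rose at least 63.6-fold. Cdc6, which licenses replication origins, was dim in replicate 3 at 2.81 and rose at least 2.27-fold with it, or at least 9.12-fold without.

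The genes that decide whether a cell enters division moved both ways. Of the 10 cyclin, inhibitor and quiescence genes tested, Ccnd1, Ccnd3, Gas1, Cdkn1a and Cdkn2c rose, and Ccne1 and Cdkn1b fell. Cdkn1b, the inhibitor p27, was dim in both tissues, at 2.08 in each Recruited array and at 3.64 to 5.29 in cortex, so no fold is given. Cyclin D1 (Ccnd1) stood at 13.42, 13.58 and 10.25 in Recruited tissue, against 7.95 to 8.47 in cortex, and rose 17.4-fold. Cdkn2c, which encodes the inhibitor p18, rose at least 12.7-fold, with 10.16, 10.61 and 7.15 in Recruited tissue and 3.85 to 4.11 in cortex. Cdkn1a, the inhibitor p21, stood at 10.02, 9.63 and 6.81, against 7.14 to 7.87 in cortex. Replicate 3 was below every cortex array, and the 2.34-fold rise of Cdkn1a (adjusted p = 0.035) was not found without replicate 1 (adjusted p = 0.32) or without replicate 2 (adjusted p = 0.21). Ezh2, a histone methyltransferase, rose at least 27.6-fold. Among the 11 p53 target genes 3 rose and 3 fell, but 5 rose and 1 fell with the values as deposited. With 3 arrays 23.7% of all tested genes rose and 26.4% fell, near the shares of the p53 list.

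Promoters are shown for 3 of the mitosis genes and for B2m as a gene of antigen presentation that rose. The mitosis list was at or near the floor of the values in cortex, and its count of rises was in part fixed by the filter. Each is the 250 bases before the start of the gene, from RefSeq on GRCm38.p6, read 5′ to 3′ on the strand of the gene. Capitals mark the CCAAT box (CCAAT, or ATTGG on the other strand), the cell cycle element CHR (TTTGAA, or TTCAAA on the other strand) and the interferon-stimulated response element (GAAA, any 2 bases, GAAA, or TTTC, any 2 bases, TTTC on the other strand). The CHR and interferon letters can overlap, and they do not in these 4 windows. Cdk1 lies at chr10:69352913-69353162 on the minus strand, Ccnb2 at chr9:70421555-70421804 on the minus strand, Plk1 at chr7:122159185-122159434 on the plus strand and B2m at chr2:122147437-122147686 on the plus strand.
Cdk1: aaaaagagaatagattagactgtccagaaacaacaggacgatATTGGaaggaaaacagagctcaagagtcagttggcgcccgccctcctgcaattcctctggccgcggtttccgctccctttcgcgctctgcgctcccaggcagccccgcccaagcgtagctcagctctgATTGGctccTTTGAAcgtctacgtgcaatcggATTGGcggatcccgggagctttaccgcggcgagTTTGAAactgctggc
Ccnb2: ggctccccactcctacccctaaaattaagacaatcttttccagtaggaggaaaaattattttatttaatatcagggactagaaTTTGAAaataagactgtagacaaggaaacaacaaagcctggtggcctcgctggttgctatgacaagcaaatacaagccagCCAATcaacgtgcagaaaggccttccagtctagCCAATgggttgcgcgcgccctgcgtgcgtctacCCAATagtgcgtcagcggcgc
Plk1: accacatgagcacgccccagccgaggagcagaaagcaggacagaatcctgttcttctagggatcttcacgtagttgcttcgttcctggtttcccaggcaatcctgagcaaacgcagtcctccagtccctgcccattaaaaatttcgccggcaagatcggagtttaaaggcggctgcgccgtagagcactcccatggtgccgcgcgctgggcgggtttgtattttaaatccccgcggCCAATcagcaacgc
B2m: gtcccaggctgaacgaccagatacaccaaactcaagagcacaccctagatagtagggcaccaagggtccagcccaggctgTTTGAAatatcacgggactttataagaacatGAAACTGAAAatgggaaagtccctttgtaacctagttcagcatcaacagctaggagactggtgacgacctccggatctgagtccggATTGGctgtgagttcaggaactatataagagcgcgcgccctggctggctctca
The CCAAT box was found, on either strand, in 12 of the 14 mitosis promoters that were matched (85.7%), in 8 of 13 for DNA replication (61.5%) in 6 of 8 for class I antigen presentation (75%) and in 3 of 12 for synaptic vesicle genes (25%), against 40.9% of the promoters of all 7976 matched genes. TTTGAA was found in 6 of the 14 mitosis promoters (42.9%), against 12.5% of all. The interferon-stimulated response element was found in 3 of 6 interferon response promoters (50%) and in 1 of 8 class I promoters (B2m is the one), against 2.93% of all. Among all 2071 matched genes that rose without replicate 3, CCAAT was found in 41.6%, close to the share in all genes.

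Transcripts of microglia and macrophages rose and were highest in replicate 1. Their mean level was 10.85, 9.03 and 7.43 in Recruited replicates 1 to 3, against 5.60 to 6.10 in cortex. All 11 tested, of 15 measured, rose with and without replicate 3 (median log2 difference 2.53, or 3.56 without it). Over all tested genes 23.7% rose, or 26% without replicate 3. C1qa, a subunit of the complement starter C1q, stood at 11.87, 9.64 and 8.21 in Recruited tissue, against 4.17, 4.71, 5.04, 5.66 and 5.12 in cortex, and rose at least 19.2-fold (adjusted p = 2.07e-07). Csf1r, the receptor that keeps microglia alive, stood at 10.21, 9.83 and 8.14, against 7.10 to 8.09, and rose 3.42-fold. Tyrobp, a signalling adaptor of myeloid receptors, was at 12.60, 10.01 and 8.08, where replicate 3 lay inside the cortex range of 7.43 to 8.08, and rose 5.58-fold. Lyz2, the lysozyme of myeloid cells, rose at least 10.9-fold and Ptprc (CD45), carried by all white blood cells, at least 7.90-fold, with 11.39, 9.27 and 5.22 in Recruited tissue and 2.12 to 2.14 in cortex. Of 10 lymphocyte markers measured Ptprc was the only one tested. The monocyte and granulocyte markers tested averaged 2.08 to 2.17 in cortex, so the filter left little room for any count but a full one. Of the 11 measured, 4 were tested and rose. For Lcn2 and Cd14 this rested on replicate 1: Lcn2 was at 10.05, 2.30 and 2.16 in Recruited tissue against 2.08 in each cortex array, and without replicate 1 neither gene passed (adjusted p = 0.91 for Lcn2 and 0.46 for Cd14).

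Genes of antigen presentation and of the interferon response rose mainly in replicate 1. The 9 class I genes tested, of 10 measured, had mean levels of 9.86, 6.16 and 5.65 in Recruited replicates 1 to 3 and of 4.27 to 4.51 in cortex. With 3 arrays 5 rose, with 6 rising without replicate 3, and 4 rose and 1 fell without replicate 1. The list was dim on average in cortex, so the filter in part fixed these counts. Over all tested genes 23.7% rose with 3 arrays and 26% without replicate 3. Without replicate 1, 4558 of the 9799 genes passed, of which 48.1% were higher. H2-K1, a class I heavy chain, stood at 12.98, 8.15 and 6.54 in Recruited tissue, with every cortex array at 2.08, and rose at least 11.9-fold (adjusted p = 5.2e-06). The 3 tumour arrays differed by more than 6 log2 units, yet each was above cortex, and the rise passed without replicate 1 as well (adjusted p = 0.00031). The class I genes are near copies of each other, so their probe sets may share signal. B2m, the light chain of class I molecules, stood at 14.72, 11.86 and 10.78, against 8.76, 8.46, 8.81, 8.82 and 9.37, and rose 12.2-fold. Psmb9, an immunoproteasome subunit, was at 11.98, 4.68 and 3.47 in Recruited tissue and at 2.08 in each cortex array. Its rise passed with 3 arrays (adjusted p = 0.0125), and without replicate 1 it did not (adjusted p = 0.27).

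The 7 class II genes tested, of 8 measured, had mean levels of 10.14, 5.55 and 4.0 in Recruited tissue and of 2.96 to 3.13 in cortex. With 3 arrays 4 rose and H2-DMa, dim on average in both tissues, fell, 6 rose without replicate 3, and 3 rose and 1 fell without replicate 1. H2-Aa stood at 12.71, 7.56 and 6.48, against 2.51 to 2.60 in cortex, and rose at least 9.67-fold. Cd74, the invariant chain, was at 11.71, 5.39 and 3.72 in Recruited tissue and at 2.59 to 2.84 in cortex, and did not pass without replicate 1 (adjusted p = 0.25). Type I interferon response genes followed the same pattern, with mean levels of 8.99, 5.41 and 3.67 in Recruited tissue and of 3.13 to 3.18 in cortex. With 3 arrays 5 of the 7 tested rose, 2 without replicate 1 and 7 without replicate 3. The class II and interferon lists were dim on average in cortex, so the filter in part fixed their counts. Over all tested genes 23.7% rose with 3 arrays and 26% without replicate 3. Without replicate 1, 4558 of the 9799 genes passed, of which 48.1% were higher. Oasl2 stood at 10.48, 7.08 and 3.65, against 2.40 to 2.43, and rose at least 2.69-fold. Usp18 was at 9.91, 3.66 and 2.08, with replicate 3 level with cortex, and without replicate 1 its adjusted p was 0.63.

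Extracellular matrix genes rose in all 3 arrays and most in replicate 2. Their mean level was 7.61, 11.35 and 8.37 in Recruited replicates 1 to 3, against 3.54 to 3.72 in cortex. All 14 tested, of 18 measured, rose with and without replicate 3 (median log2 difference 5.25, or 5.87 without it, and 3.33 and 4.01 with dim levels raised to the limit). Since the list was dim on average in cortex, the filter left little room for any other count. Col3a1 stood at 9.55, 14.28 and 11.74 in Recruited tissue, against 2.08, 2.18, 2.08, 2.08 and 2.08 in cortex. Col1a2, a subunit of another fibrillar collagen, stood at 6.23, 13.61 and 11.20, against 2.66 to 2.69, and rose at least 26.1-fold (adjusted p = 6.32e-09). In both genes replicate 1 was the lowest tumour array and replicate 3 lay above it. Fn1 (fibronectin) stood at 10.05, 12.96 and 9.24 and rose at least 34.4-fold, and Timp1, an inhibitor of matrix proteases, rose at least 7.38-fold. Markers of pericytes, smooth muscle and fibroblasts moved the same way: 8 of the 10 tested rose and Myl9, a myosin light chain of smooth muscle that was dim in both tissues, fell, with mean levels of 6.70, 8.64 and 6.83 in Recruited tissue and of 4.27 to 4.35 in cortex. Lum, a proteoglycan of fibroblasts, stood at 6.22, 11.78 and 7.86, with every cortex array at 2.08, and rose at least 7.87-fold. Dcn rose 7.27-fold, Acta2, the actin of smooth muscle, 3.94-fold, and Rgs5, a pericyte marker, at least 1.39-fold. Of the endothelial markers only 3 of 11 measured were tested, and the 3 rose, Cldn5 of the tight junctions at least 7.04-fold and Vwf at least 3.52-fold. The mean level of these markers was 3.65 to 3.98 in cortex, so the filter left little room here too. Injury response genes of the annexin and S100 families rose for 12 of the 13 tested, and for 13 without replicate 3 (median log2 difference 4.0, or 4.66 without it). Over all tested genes 23.7% rose and 26.4% fell with 3 arrays, or 26% and 30.1% without replicate 3.

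**Figure D3:**
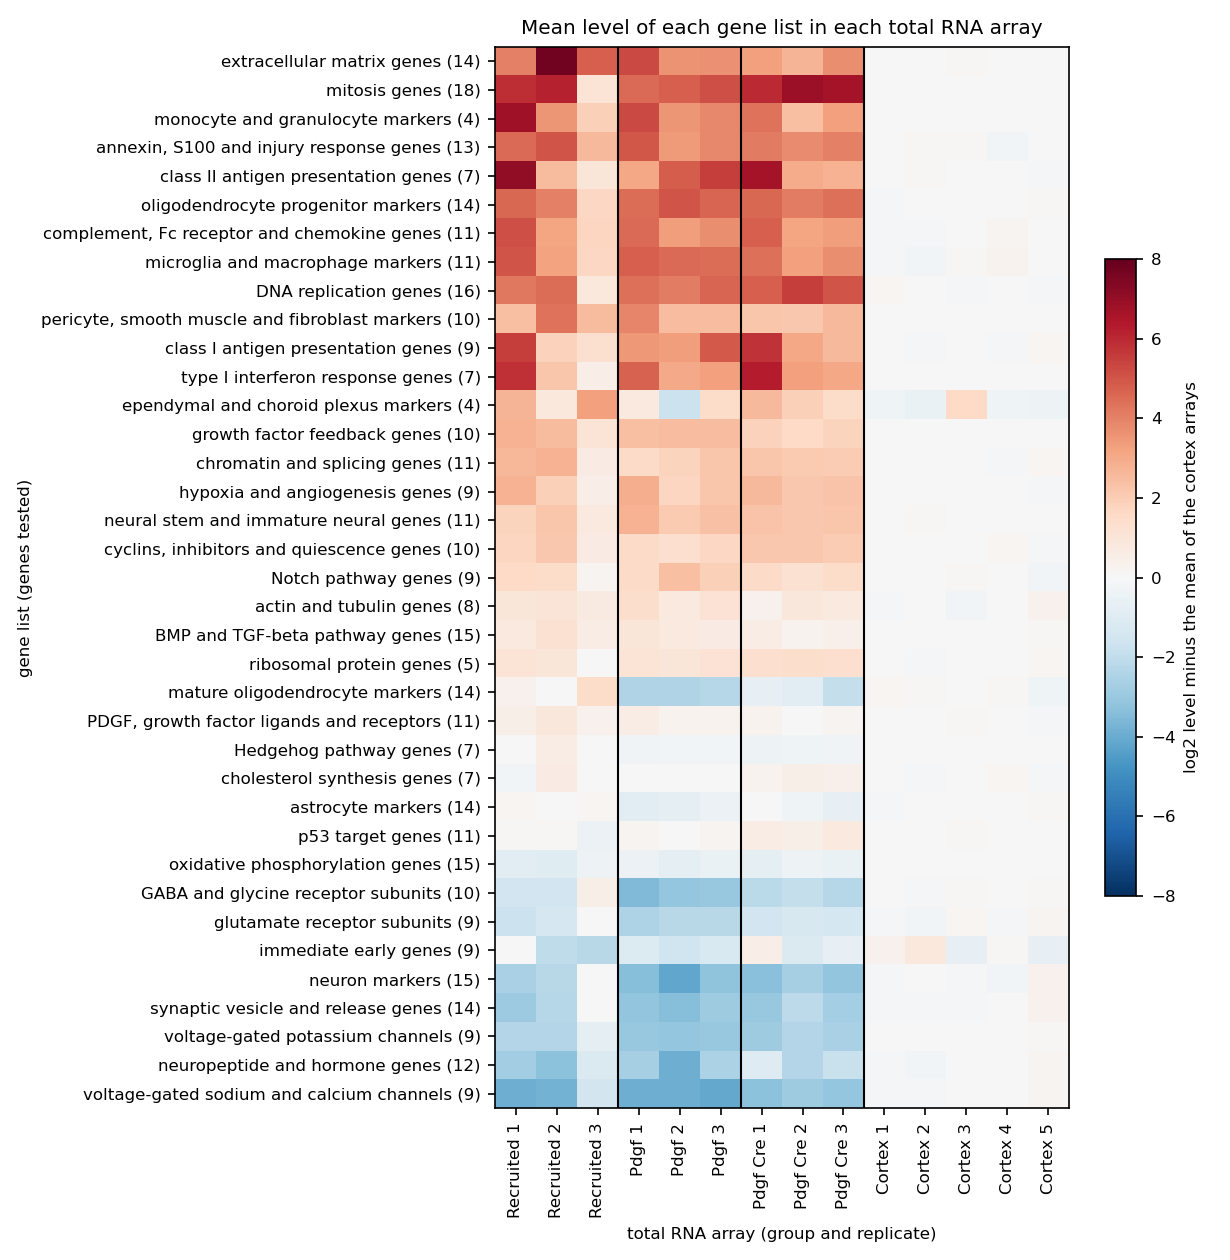
Mean log2 level of each gene list (rows, with the number of genes tested) in each total RNA array (columns), minus its mean over the cortex arrays, with red for higher and blue for lower than cortex. Among the 3 Recruited arrays, class I, class II and interferon genes are highest in replicate 1 and matrix genes in replicate 2, replicate 1 of Pdgf Cre is higher still for interferon genes (9.42, against 8.99 in Recruited replicate 1) and class I genes (10.14, against 9.86), and mitosis and neuron lists in replicate 3 are pale, close to cortex.

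Transcripts of neurons fell in Recruited replicates 1 and 2, while replicate 3 carried them on average at about the level of cortex. Still, 8 of the 15 neuron markers lay below every cortex array in all 3 Recruited arrays, and 1 lay above. Over all tested genes these shares were 32.8% and 30.9%. The 15 neuron markers had mean levels of 8.83, 9.21 and 11.36 in Recruited replicates 1 to 3, against 11.22 to 11.78 in cortex. With 3 arrays 10 fell and none rose (median log2 difference -1.56), and without replicate 3 12 fell (median -2.09), where 26.4% and 30.1% of all tested genes fell. Tbr1, a transcription factor of excitatory cortical neurons, stood at 5.71, 6.52 and 10.24 in Recruited tissue, against 10.96, 11.18, 10.81, 10.47 and 11.51 in cortex. Each tumour array was below each cortex array, replicate 3 by little, and the fall was 11.3-fold (adjusted p = 5.06e-06), or 29.2-fold without replicate 3. Rbfox3 (NeuN) was at 6.90, 8.28 and 10.93, against 11.84 to 12.01, and fell 9.12-fold. The vesicular glutamate transporter gene Slc17a7 was at 4.78, 5.92 and 9.50, where replicate 3 lay within the cortex range of 8.47 to 10.44, and fell 5.60-fold. Camk2a, a kinase of excitatory synapses, fell 4.65-fold. Snap25, of the synaptic release machinery, differed little: it stood at 14.58, 14.47 and 15.55 in Recruited tissue and at 15.10 to 15.27 in cortex, and its log2 difference of -0.35 did not pass (adjusted p = 0.291). Stmn2 in replicate 3, at 13.74, was above all cortex arrays (12.15 to 13.01), and the gene passed only in the fit without that array, as a fall of 2.47-fold. Gad2, which makes GABA, was at 7.51, 7.51 and 7.73 in Recruited tissue and at 6.45 to 7.46 in cortex, above all cortex arrays by under 2-fold.

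In the mean levels of the synaptic and channel lists replicate 3 was the highest Recruited array, but its place against cortex differed. It lay inside the cortex range for vesicle genes and glutamate receptor subunits. For GABA and glycine receptor subunits it lay above (10.57 against 9.904 to 10.185). It lay below for sodium and calcium channels (6.98 against 8.30 to 8.68) and potassium channels (7.705 against 8.42 to 8.55). Synaptic vesicle and release genes had mean levels of 8.71, 9.33 and 11.59 in Recruited tissue, against 11.49 to 11.99 in cortex. Of the 14 tested 9 fell with 3 arrays and 12 without replicate 3 (median log2 difference -1.55 and -2.44). Syt1, the calcium sensor of release, stood at 2.31, 2.35 and 6.59, against 7.24, 7.28, 7.34, 7.11 and 8.36, and fell at least 3.53-fold. Of 9 voltage-gated sodium and calcium channel genes 8 fell in both fits (median log2 difference -3.44, or -1.90 with dim levels raised to the limit). Cacng2, which brings AMPA receptors to the synapse, was at 2.61, 2.70 and 4.89, against 8.07 to 8.57, and fell at least 6.94-fold. Of 9 potassium channel genes 6 fell, 8 without replicate 3, but 2 with the values as deposited and 9 after centring. Kcnh1 was dim in all 3 Recruited arrays, at 2.18, 2.25 and 4.05, against 8.2 to 8.72, and fell at least 6.96-fold. Of 9 glutamate receptor subunits 6 fell and 1 rose. Of 10 GABA and glycine receptor subunits 4 fell and 1 rose, and 6 fell without replicate 3. Over all tested genes 26.4% fell, or 30.1% without replicate 3. Gabra5 was at 7.54, 7.6 and 11.57 in Recruited tissue and at 9.89 to 10.27 in cortex, so that replicate 3 lay above cortex and the other tumour arrays below it.

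Of the 12 neuropeptide genes tested 10 fell in both fits (median log2 difference -2.14, or -2.53 without replicate 3). Sst, of somatostatin neurons, stood at 4.66, 5.51 and 9.78 in Recruited tissue, against 10.04, 10.29, 10.46, 10.52 and 11.11 in cortex, and fell 14.2-fold. Npy was at 6.2, 6.29 and 9.02, against 11.33 to 12.20, and fell 21.5-fold. Cck was at 10.55, 9.43 and 13.38, where replicate 3 lay within the cortex range of 12.96 to 13.54. Its fall of 4.06-fold passed with 3 arrays and not without replicate 2 (adjusted p = 0.083). Immediate early genes, which neurons switch on within minutes, fell for 3 of the 9 tested, near the 26.4% of all genes that fell. Without replicate 1 5 fell, 7 fell after centring, and 2 fell with the values as deposited. Their mean levels were 10.74, 8.75 and 8.55 in Recruited tissue and 10.12 to 11.64 in cortex, with replicate 1 inside the cortex range. Npas4, specific to active neurons, was at 9.79, 2.79 and 5.78 in Recruited tissue, against 8.58, 9.34, 7.48, 7.96 and 6.74 in cortex, and did not pass (adjusted p = 0.1). Arc was at 10.16, 3.98 and 7.6, against 11.30 to 12.96.

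Genes of mature oligodendrocytes showed no common direction against cortex. The mean level of the 14 tested was 9.10, 8.67 and 10.21 in Recruited tissue, against 8.38 to 8.90 in cortex. With 3 arrays 5 rose and 3 fell, 2 rose and 3 fell without replicate 3, 8 rose and 1 fell with the values as deposited, and 2 rose and 3 fell after centring. The median log2 difference was 0.89, or 0.49 without replicate 3, and -0.06 after centring without replicate 3. Cldn11, the tight junction protein of myelin, stood at 12.76, 12.49 and 12.60 in Recruited tissue, against 9.33, 8.74, 9.01, 8.90 and 9.15 in cortex. The 3 tumour arrays were level with each other and far above cortex, a rise of 12.1-fold with and without replicate 3 (adjusted p = 3.96e-11). Mal, a myelin proteolipid, stood at 12.32, 11.80 and 13.66, against 10.82 to 11.22, and rose 2.80-fold, which passed only with replicate 3 included (adjusted p = 0.0893 without it). Mbp, a main protein of compact myelin, was at 12.76, 13.16 and 13.79, against 12.69 to 12.85, and did not pass (adjusted p = 0.0699). Mog was at 9.29, 10.22 and 12.33 in Recruited tissue and at 8.86 to 9.49 in cortex, and Mag at 7.68, 8.46 and 10.64, against 7.19 to 7.82. In each of the 2, replicate 3 was the highest of the 8 arrays. Opalin and Aspa went the other way: Opalin was at 6.0, 6.05 and 8.17, against 8.30 to 9.71, and fell 5.66-fold, and Aspa fell 3.23-fold.

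Astrocyte markers showed no common direction. Of the 14 tested 4 rose and 3 fell (4 rose and 4 fell without replicate 3), 4 rose and none fell with the values as deposited, and 3 rose and 5 fell after centring. The shares over all tested genes with 3 arrays were 23.7% rising and 26.4% falling. Slc1a3, a glutamate transporter of astrocytes and progenitors, stood at 10.14, 10.24 and 9.80 in Recruited tissue, against 7.78, 7.76, 8.05, 7.82 and 7.81 in cortex, and rose 4.66-fold. Aqp4, the water channel of astrocyte endfeet, was at 8.86, 7.09 and 6.12, against 3.97 to 5.96, with cortex replicate 5 the highest of the cortex arrays, and rose at least 3.27-fold. Aldh1l1 was at 7.27, 6.75 and 9.13, against 8.0 to 8.55, and fell 2.37-fold only without replicate 3. Gja1, the main gap junction protein, was at 12.60 to 12.81 in Recruited tissue and at 12.22 to 12.60 in cortex, and did not pass. Of the markers of ependyma and choroid plexus 4 of 8 measured were tested. Ttr, a carrier protein made by the choroid plexus, was at 14.76, 10.38 and 15.20 in Recruited tissue, against 4.54, 4.21, 12, 4.85 and 4.43 in cortex. Clic6 was at 7.53, 4.40 and 8.57 in Recruited tissue and at 3.64 to 4.72 in cortex, where replicate 3 of cortex was again the highest. Both genes were highest in Recruited replicate 3, but Foxj1, which defines ciliated ependyma, was at 2.10 in each Recruited array and 2.08 in each cortex array.

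The counts of the other groups stand beside 23.7% of all tested genes that rose and 26.4% that fell with 3 arrays (26% and 30.1% without replicate 3). Genes of neural stem and immature cells rose for 6 of the 11 tested, and for 8 without replicate 3, with 1 falling. Vim, an intermediate filament gene of immature and reactive glia, stood at 12.49, 13.54 and 11.07 in Recruited tissue, against 7.65 to 7.83, and rose 25.3-fold. Notch pathway genes rose for 5 of 9 and fell for 1. The ligand gene Dll1 was at 6.73, 6.75 and 6.31, against 3.34 to 3.49, and rose at least 1.94-fold, whereas Hes5, a target of the pathway, was at 5.32, 5.67 and 5.82, against 6.92 to 7.0, and fell at least 2.49-fold. Chromatin and splicing genes rose for 7 of 11 and fell for 1. Of 15 oxidative phosphorylation genes 4 fell, about the share of all genes (26.4%), and 9 fell after centring. Sdhb of complex II stood at 11.95, 11.61 and 12.44, against 13.50 to 13.73, and fell 3.05-fold. Of the hypoxia and angiogenesis genes 4 of 9 rose and 1 fell, and Adm rose at least 2.07-fold, while Vegfa was dim in both tissues. Ribosomal protein genes had no settled direction: of 5 tested Rps9 rose, and Rpl4, at 14.28 to 14.76 in Recruited tissue against 13.83 to 13.93 in cortex, was higher by 0.69 on the log2 scale but lower by 0.19 after centring. Cholesterol synthesis genes, BMP and TGF-beta genes, Hedgehog genes and actin and tubulin genes rose for 0 of 7, 5 of 15, 2 of 7 and 2 of 8 and fell for 1, 3, 2 and 3; with the values as deposited 3 of 7, 8 of 15 and 2 of 8 of the cholesterol, BMP and actin lists rose.

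Recruited tissue was then compared with the other tumours, which belong to the same dataset of the submitters. Against Pdgf tumours 3383 genes passed (34.5% of those tested), 1636 higher in Recruited tissue and 1747 lower. Against Pdgf Cre tumours 3612 passed (36.9%), 1781 higher and 1831 lower. With only the 6 arrays of each comparison in the fit, 2045 and 2494 passed. Without replicate 3 the counts were 3436 (35.1%, 16.5% higher and 18.5% lower) and 3732 (38.1%, 18.2% higher and 19.9% lower). Of the genes that passed against Pdgf Cre, 49.3% were higher here, but 75.1% with the values as deposited. Both comparisons use the same 3 Recruited arrays. The comparisons of each tumour with cortex share the cortex arrays, and their values are set side by side only: 4947 genes (50.5%) passed for Pdgf, 25% higher and 25.5% lower, and 4690 (47.9%) for Pdgf Cre, 22.8% higher and 25% lower.

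Genes of myelin set Recruited tissue apart from both other tumours. Of the 14 mature oligodendrocyte genes tested, 12 were higher than in Pdgf tumours with and without replicate 3, and 8 were higher than in Pdgf Cre tumours, or 5 with 1 lower without replicate 3, and the shares of all genes that were higher were 16.7% and 18.2%. Mal averaged 12.60 ± 0.96 in Recruited tissue, 7.04 in Pdgf and 9.51 in Pdgf Cre, and its difference from Pdgf was the largest among genes not dim in either tumour, at 5.55 on the log2 scale (adjusted p = 4.53e-10). Cldn11 averaged 12.62 ± 0.13 in Recruited tissue, 7.86 in Pdgf and 8.24 in Pdgf Cre, with differences of 4.76 and 4.38. Mog averaged 10.61 in Recruited tissue, 5.47 in Pdgf and 7.36 in Pdgf Cre. Against cortex 10 of the 15 neuron markers fell in Recruited tissue, 15 in Pdgf and 15 in Pdgf Cre tumours. In the direct test 9 of 15 neuron markers were higher than in Pdgf tumours and 9 than in Pdgf Cre tumours, and 6 with 1 lower in each without replicate 3. Nefm, a neurofilament of axons, averaged 11.30 ± 0.80 in Recruited tissue, 6.89 in Pdgf and 9.07 in Pdgf Cre, against 11.22 ± 0.34 in cortex. Gad2 averaged 7.59 ± 0.13 in Recruited tissue, 2.09 in Pdgf and 3.30 in Pdgf Cre, both dim, so it was at least 3.84-fold higher in Recruited tissue than in each, or at least 3.65-fold without replicate 3.

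Matrix genes stood highest in Recruited replicate 2 among the total RNA arrays of the tumours. Of the 14 tested 6 were higher and 1 lower than in Pdgf tumours (8 higher without replicate 3), and 10 were higher than in Pdgf Cre tumours (11 without it). Over all tested genes 16.7% were higher and 17.8% lower than in Pdgf tumours, and 18.2% were higher than in Pdgf Cre tumours. Without replicate 3 the shares higher were 16.5% and 18.2%. The mean levels of matrix genes differed by array. Their mean levels of 7.61, 11.35 and 8.37 in Recruited replicates 1 to 3 stood against 8.85, 7.2 and 7.26 in Pdgf and 6.89, 6.32 and 7.31 in Pdgf Cre. Recruited replicate 1 lay below Pdgf replicate 1. Col1a2 averaged 10.35 ± 3.76 in Recruited tissue, 5.38 in Pdgf and 3.55 in Pdgf Cre, and Serpinh1 averaged 11.61 ± 1.5, 8.67 and 7.81. Moxd1, a monooxygenase-like protein gene, stood at 12.34, 13.51 and 9.03 in Recruited replicates 1 to 3, against means of 7.20 in Pdgf and 10.65 in Pdgf Cre, and was 4.43 higher than in Pdgf on the log2 scale. Rraga, which carries amino acid signals to mTORC1, was at 12.04, 11.88 and 11.69 in Recruited tissue, against means of 8.12 in Pdgf and 7.03 in Pdgf Cre, and was 4.84 above Pdgf Cre. Alyref and Ube2q2, a ubiquitin conjugating enzyme, were 4.60 and 4.17 above Pdgf Cre.

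Counts of progenitor and mitosis genes that differed between the tumours changed without replicate 3. Of the 14 progenitor markers 8 were lower than in Pdgf tumours and 6 lower than in Pdgf Cre tumours with 1 higher, and without replicate 3 the counts lower were 6 and 3, with 2 higher in each. Myt1, a transcription factor of the lineage, averaged 7.06 in Recruited tissue, 10.86 in Pdgf and 9.74 in Pdgf Cre, and was 3.0 lower than in Pdgf without replicate 3. C1ql2, Tmem100 and Qpct were 3.66, 3.58 and 3.34 lower than in Pdgf on the log2 scale, with Recruited means of 6.42, 7.50 and 7.02 and Pdgf means of 10.08, 11.08 and 10.36. Of the 18 mitosis genes 13 were lower than in Pdgf Cre tumours and none higher, but without replicate 3 only 3 were lower and 1 higher. Against Pdgf tumours 3 mitosis genes were higher and 2 lower, and 11 were higher without replicate 3. Over all tested genes 16.7% were higher and 17.8% lower than in Pdgf tumours (16.5% and 18.5% without replicate 3). Against Pdgf Cre the shares were 18.2% and 18.7% (18.2% and 19.9% without it). The 3 mitosis genes higher than in Pdgf were thus near the share of all genes. Sgo1 and Cdca3, of the mitotic chromosome and its timing, were 4.43 and 4.21 lower than in Pdgf Cre, and still 2.34 and 2.93 lower without replicate 3. A few genes were high in Pdgf Cre tumours and low in Recruited tissue. Pnmal2 averaged 6.01 ± 0.73 in Recruited tissue, 4.75 in Pdgf and 12.54 in Pdgf Cre, against 12.25 ± 0.63 in cortex, so the Pdgf Cre level did not differ detectably from cortex (adjusted p = 0.517). Bmpr2 averaged 2.39 in Recruited tissue, 2.38 in Pdgf and 8.11 in Pdgf Cre, against 8.63 in cortex. Rbm5, a splicing factor, averaged 7.51 in Recruited tissue, 8.68 in Pdgf and 11.31 in Pdgf Cre, against 8.56 in cortex.

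**Figure D4:**
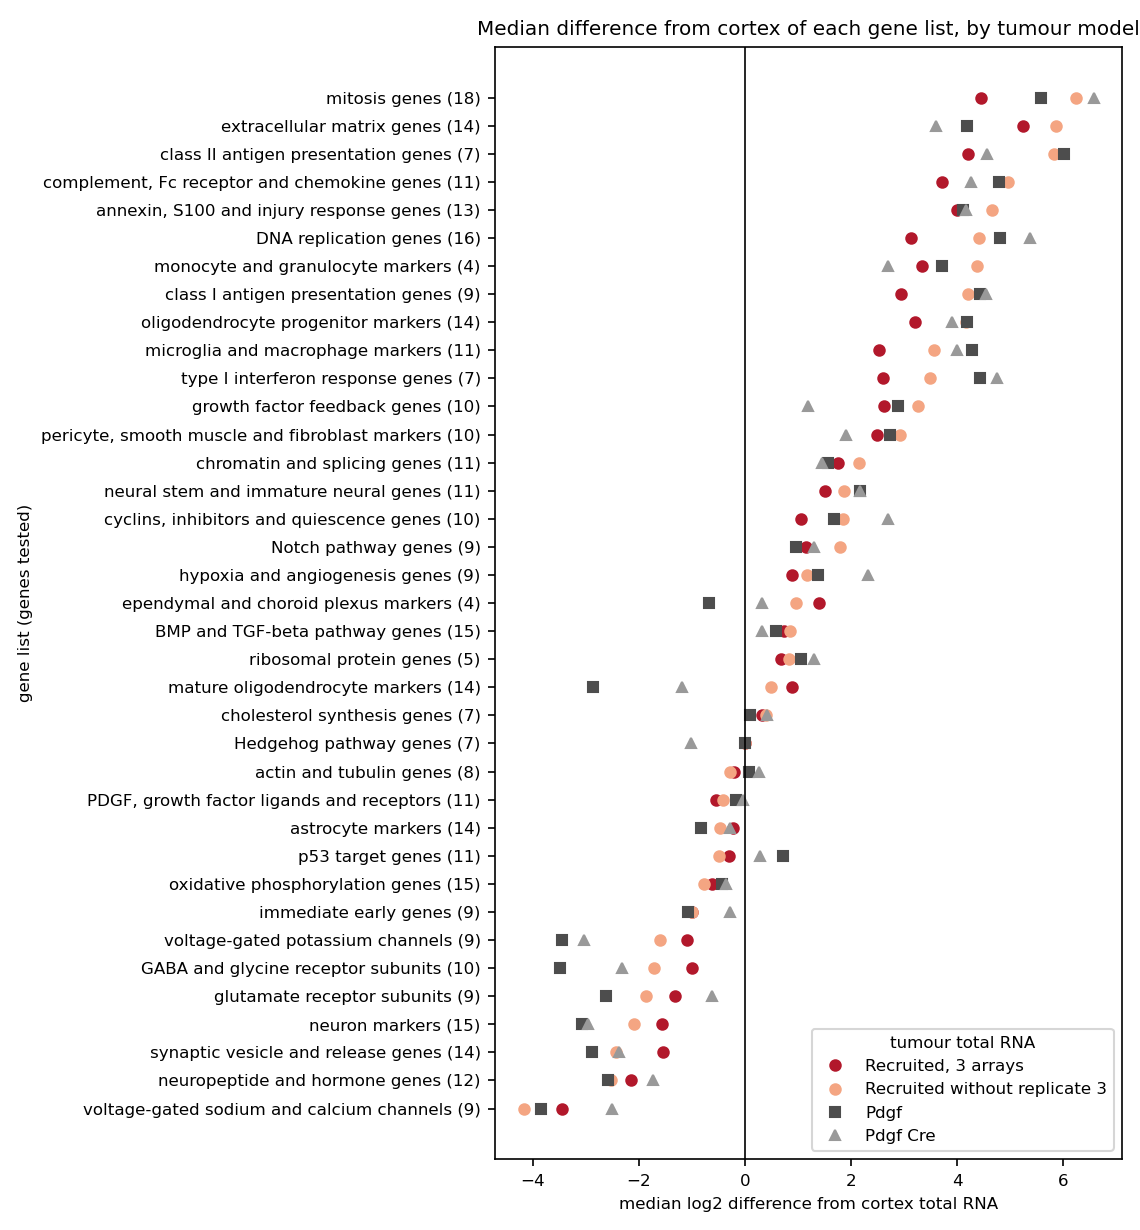
Median log2 difference from cortex of each gene list (rows, with the number of genes tested) in Recruited tissue with 3 arrays, Recruited tissue without replicate 3, Pdgf tumours and Pdgf Cre tumours. Mature oligodendrocyte markers lie at 0.89 in Recruited tissue, against -2.85 in Pdgf and -1.19 in Pdgf Cre tumours, and the 4 sets of points share the same cortex arrays.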

How the data were processed

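Total RNA of Recruited tumours and of cortex was read on Affymetrix arrays after 2-cycle amplification and biotin labelling, per the labels. The deposited values are log2 signals made with GCRMA, per the submitters' processing notes, which give no version. Each of the 12 groups of arrays had a minimum of its own, shared by its arrays, so the background step appears to have run per group. How the levels of different groups relate is therefore open, and replicates may look closer than they were. Neither could be measured here. The number of arrays limits the precision.

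The values were quantile-normalized over all 38 arrays. The 16395 probe sets comprised 64 controls, 687 without a named gene and 15644 with 1 named gene, and 0 had several. The symbols of 15617 matched RefSeq, and 0 changed. The filter on dim values left 9799 genes and removed 5845. Differences were fitted with limma 3.58.1 in R 4.3.3, in 1 model of the 12 groups with 26 residual degrees of freedom (25 without Recruited replicate 3), and adjusted by Benjamini-Hochberg over the tested genes. The fit was tested on simulated data.

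The comparison, the 40 gene lists (562 entries, 461 measured, 379 tested) and the naming rule were chosen with earlier results of these data known. Named genes were the 12 largest rises and falls with arrays that did not overlap, the 6 on each side that were dim in one tissue, the 6 on each side without replicate 3, up to 4 members of each list with any member that decides its description, and the 4 on each side against each other tumour model. Other members of the lists, such as Cdk1, Ccnb2, Cdkn1b, Mbp, Snap25, Gad2 and Pdgfa, were named for their known roles after their values were seen. Replicate numbers did not pair the tumour and cortex arrays: the deviations of same-numbered arrays correlated at 0.101, -0.02 and -0.122. Between Recruited and Pdgf total arrays they correlated at -0.026, 0.082 and 0.079, and between Recruited and Pdgf Cre total arrays at 0.482, -0.186 and -0.036. Between Recruited total and bound arrays they correlated at 0.466, 0.266 and 0.488. Alternatives changed the scale, the filter, the arrays fitted, the weights, the prior, the threshold and the block, and left out each array in turn. The actin covariate was added after the data were seen.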

Additional observations from a re-analysis of the deposited data

Results flagged for a closer look

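Arrays of cortex that stood apart from the other 4 were looked for in 79 sets of values, of which chance flags about 1 in 20. Cortex replicate 5 stood above the others in Cd9 (6.66), Alyref (7.58), Pfn1 (7.18) and Npy (12.20), in the mean of the synaptic vesicle and release genes (11.99) and in the mean of BMP and TGF-beta genes (6.68). Its actin 3′ minus 5′ difference was the lowest of the cortex arrays, at 2.798, and the part of this in the 6 values was not tested. Cortex replicate 2 stood apart in Dmtn (12.17), Col3a1 (2.18) and the mean of the neural stem and immature neural genes (7.05). Cortex replicate 3 stood apart in Emp1 (3.03), Cdkn2b (2.33) and the mean of the ependymal and choroid plexus markers (5.48), a list that holds Ttr, at 12 in that array. The values of Col3a1, Emp1 and Cdkn2b were all dim.

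Recruited tissue differed from Pdgf tumours in 3383 genes by the test of the difference itself. On the log2 scale Mal was 5.55 higher, Cldn11 4.76, Moxd1 4.43 and Nefm 4.41, while Myt1 stood at -3.80, C1ql2 at -3.66, Tmem100 at -3.58 and Qpct at -3.34. From Pdgf Cre tumours it differed in 3612 genes. Rraga was 4.84 higher, Alyref 4.60, Cldn11 4.38 and Ube2q2 4.17, while Pnmal2 stood at -6.53, Sgo1 at -4.43, Cdca3 at -4.21 and Rbm5 at -3.80.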

How the results depend on the processing

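Against cortex the count of passing genes was 4916. Alternatives that kept the minimum fold and all 8 arrays gave 4486 with a dim limit of log2 100 to 5394 after centring, with 4645 when only the 8 arrays were fitted, and no minimum fold gave 7362. Leaving out 1 array at a time gave 4558 to 5504, or 5355 to 5512 when replicate 3 was already out. With the replicate block the counts were 4904, and 5468 without replicate 3. Against Pdgf tumours 3383 genes passed, but 2045 with only the 6 arrays compared and 5671 with no minimum fold. Against Pdgf Cre tumours 3612 passed, but 2494 with only the 6 arrays compared and 5907 with no minimum fold. Leaving out 1 array gave 3173 to 3559 against Pdgf and 3480 to 3888 against Pdgf Cre, and the replicate block gave 3449 and 3676. The cause of these moves was not tested beyond what the settings themselves change. The share of higher calls followed the scale: without replicate 3 it was 46.3%, against 64.6% of 5378 as deposited and 32% of 5920 after centring.

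Of 176 named genes against cortex, 11 no longer passed with only the 8 arrays, 11 without Recruited replicate 1 and 7 with the actin covariate. With the values as deposited 9 of 175 no longer passed and 4 newly passed, and after centring 4 of 176 no longer passed and 3 newly passed. Directions turned for few genes, none of which had passed. After centring Foxj1 was at -0.903 (-0.926 without replicate 3), Lss at -0.075, Rps6 at -0.416 and Rpl4 at -0.192 (-0.103 without replicate 3). With single arrays left out Rps6 ranged from -0.23 (without replicate 1) to 0.834 and Lss from -0.088 (without replicate 2) to 0.75. With replicate 3 already out, Npas4 ranged from -5.234 without replicate 1 to 1.769 without replicate 2, where each fit rests on 1 tumour array that is assumed to vary like the other groups. Dim levels limit what can be said of size, and 52.7% to 52.8% of genes were dim on each total RNA array.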
